A study of Mus musculus with 7 samples.

Results

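Immunoglobulin heavy-chain variable segments are described here from RNA sequencing of mouse dorsal root ganglia (7 samples), which hold the cell bodies of sensory neurons. The members were the rows of the deposited table whose gene name begins with Ighv, 183 of 54309 rows. Per the labels, all mice were male C57bl/6 animals of 6 to 8 weeks whose sciatic nerve had been injured 72 h before the L4-6 ganglia were dissected. Dissection was at Zeitgeber time 20 (ZT20, hours from lights on; 4 samples) or ZT8 (3 samples), and all samples carried the injury. The ganglia were dissociated with dispase, collagenase and papain and passed over a 15% albumin gradient to enrich neurons. The labels do not say whether each sample came from a separate animal, so p-values measure only the spread between these samples, which may be technical.

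The variable domain of an antibody heavy chain is assembled in each developing B cell by joining a V, a D and a J segment from a cluster of alternatives. Each B cell clone therefore uses a single productive V segment, and its descendants, including plasma cells that secrete antibody in large amounts, transcribe that same segment. V segments fall into families by sequence likeness, of which Ighv1 (the J558 family) is the largest in mice. Neurons and glia are not known as antibody producers. In activated B cells the rearranged segment can also gain point mutations, so a transcript need not match its germline segment exactly.

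All 183 identifiers were found in the GENCODE M21 annotation (GRCm38), and all lie on the minus strand of chromosome 12. There, 113 are annotated as functional V genes and 70 as V pseudogenes. Both rows without a symbol that the annotation names as Ighv were listed at 0 TPM in every sample and are not members. TPM, the deposited unit, is a level per transcript length within a sample. The functional members share much of their sequence. For each of the 113, the coding part of the V exon was aligned with that of every other, and the nearest relative was 72.1% to 100% identical, with a median of 95.3%. The nearest relative was at least 95% identical for 64 members and belonged to the same family for 108. A median of 44.4% of a segment's 31-base words also occurred in another Ighv transcript, 31 bases being the default word length of the index of Salmon, the quantifier named in the submitters' processing notes. The order of bases TGTGCAAGA, which holds the codon of a conserved cysteine, stood within the last 12 bases of the V exon in 58 of the 113 (51.3%, transcribed strand only). It was present in 14 of the 15 segments named individually by rule, that is those among the 3 highest of any sample or past the adjusted threshold. Of the functional members at 1 TPM or more in any sample, 44 of 69 (63.8%) had it.

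The V exons below belong to segments that the results turn on, each as its last 300 bases. Ighv9-2 and Ighv1-59 were high in every ZT8 sample and near 0 at ZT20, Ighv1-53 and Ighv1-80 led ZT8 samples, and each is followed by its nearest relative. Capitals mark the bases at which a segment and that relative differ: 12 for Ighv9-2 and Ighv9-1 (14 over all 305 aligned bases), 8 for Ighv1-59 and Ighv1-69, 12 for Ighv1-53 and Ighv1-72, and 12 for Ighv1-80 and Ighv1-82. Ighv1-5, which led a sample of each group, and Ighv4-1, which held most of the signal of 1 sample, had nearest functional relatives of lower identity (86.2% and 76.5%). Pseudogenes were not aligned, and 43.2% of the 31-base words of Ighv4-1 occur in another Ighv transcript, against 8.77% for Ighv1-5. Their capitals mark the 41 shown positions that differ from Ighv1-7 (42 of 305 in all) and the 70 that differ from Ighv11-2 (72 of 307 in all). Sequences are the coding part of the last exon, 5′ to 3′, from the GENCODE M21 transcripts.
Ighv9-2: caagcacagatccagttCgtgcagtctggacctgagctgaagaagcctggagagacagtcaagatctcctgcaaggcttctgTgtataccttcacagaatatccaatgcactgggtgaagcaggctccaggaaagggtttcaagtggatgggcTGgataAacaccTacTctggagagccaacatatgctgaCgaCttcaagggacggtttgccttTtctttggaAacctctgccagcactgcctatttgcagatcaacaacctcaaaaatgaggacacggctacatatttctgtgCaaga
Ighv9-1: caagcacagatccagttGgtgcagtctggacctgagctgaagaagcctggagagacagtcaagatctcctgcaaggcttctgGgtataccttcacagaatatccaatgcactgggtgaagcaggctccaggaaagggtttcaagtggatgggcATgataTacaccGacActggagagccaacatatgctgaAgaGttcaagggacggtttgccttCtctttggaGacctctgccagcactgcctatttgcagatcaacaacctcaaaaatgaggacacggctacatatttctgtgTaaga
Ighv1-59: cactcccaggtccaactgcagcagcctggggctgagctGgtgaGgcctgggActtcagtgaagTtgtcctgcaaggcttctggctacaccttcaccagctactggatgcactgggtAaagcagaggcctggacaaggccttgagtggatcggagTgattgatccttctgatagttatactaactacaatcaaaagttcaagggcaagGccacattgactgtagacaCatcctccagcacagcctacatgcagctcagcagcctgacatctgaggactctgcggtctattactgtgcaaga
Ighv1-69: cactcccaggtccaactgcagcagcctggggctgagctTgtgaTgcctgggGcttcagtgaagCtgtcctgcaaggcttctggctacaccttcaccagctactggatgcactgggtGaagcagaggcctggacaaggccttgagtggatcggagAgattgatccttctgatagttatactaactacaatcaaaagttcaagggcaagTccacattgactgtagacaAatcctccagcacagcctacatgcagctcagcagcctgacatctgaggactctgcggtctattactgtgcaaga
Ighv1-53: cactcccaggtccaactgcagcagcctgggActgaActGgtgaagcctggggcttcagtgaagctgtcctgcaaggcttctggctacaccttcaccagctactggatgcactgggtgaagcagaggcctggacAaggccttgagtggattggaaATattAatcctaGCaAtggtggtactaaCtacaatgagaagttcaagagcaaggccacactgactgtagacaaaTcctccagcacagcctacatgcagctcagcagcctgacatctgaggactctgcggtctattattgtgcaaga
Ighv1-72: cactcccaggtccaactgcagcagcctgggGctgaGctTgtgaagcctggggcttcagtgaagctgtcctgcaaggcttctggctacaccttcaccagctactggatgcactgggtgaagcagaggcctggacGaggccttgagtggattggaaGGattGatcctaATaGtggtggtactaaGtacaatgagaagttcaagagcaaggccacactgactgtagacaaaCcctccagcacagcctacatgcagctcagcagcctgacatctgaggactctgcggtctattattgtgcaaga
Ighv1-80: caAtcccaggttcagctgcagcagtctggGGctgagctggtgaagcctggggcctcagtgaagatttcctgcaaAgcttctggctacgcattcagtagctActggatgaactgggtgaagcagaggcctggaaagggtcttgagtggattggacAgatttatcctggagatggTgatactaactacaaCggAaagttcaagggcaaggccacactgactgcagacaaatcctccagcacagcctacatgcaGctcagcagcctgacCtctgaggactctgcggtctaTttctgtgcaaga
Ighv1-82: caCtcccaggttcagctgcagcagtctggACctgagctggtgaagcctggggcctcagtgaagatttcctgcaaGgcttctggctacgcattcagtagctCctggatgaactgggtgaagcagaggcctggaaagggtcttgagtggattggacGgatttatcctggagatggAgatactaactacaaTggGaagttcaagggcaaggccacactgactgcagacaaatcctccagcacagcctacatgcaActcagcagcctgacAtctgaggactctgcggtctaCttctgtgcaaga
Ighv1-5: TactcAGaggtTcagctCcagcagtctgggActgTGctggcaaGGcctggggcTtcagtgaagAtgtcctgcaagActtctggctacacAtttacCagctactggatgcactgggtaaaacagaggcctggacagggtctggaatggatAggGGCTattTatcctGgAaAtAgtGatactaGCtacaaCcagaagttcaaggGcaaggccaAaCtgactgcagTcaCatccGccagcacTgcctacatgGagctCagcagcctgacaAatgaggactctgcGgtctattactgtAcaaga
Ighv4-1: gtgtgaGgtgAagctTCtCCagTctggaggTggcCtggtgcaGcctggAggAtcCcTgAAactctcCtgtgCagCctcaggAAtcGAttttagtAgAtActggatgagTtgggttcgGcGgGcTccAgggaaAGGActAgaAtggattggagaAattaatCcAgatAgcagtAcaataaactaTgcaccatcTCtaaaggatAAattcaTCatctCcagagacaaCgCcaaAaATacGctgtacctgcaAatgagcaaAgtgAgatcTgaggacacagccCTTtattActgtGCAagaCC

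As a check of the libraries, 4 genes of the Y chromosome (Uty, Kdm5d, Eif2s3y and Ddx3y) summed to 33.1 to 84.6 TPM in 5 samples but to 0.0162 and 0.00868 TPM in ZT20 replicates 3 and 4, against the label male. The Ighv results of the comparison are given with and without those 2 libraries. ZT8 replicate 2 had the fewest genes above 0 TPM, 18297 against 22541 to 25238 in the other samples. TPM sums to 1 fixed total per sample, so the depth of sequencing is unknown.

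The summed level of the Ighv rows varied widely within each group. It was 68.7, 722.9, 960.2 and 9.45 TPM in ZT20 replicates 1 to 4, and 2859, 579.5 and 1714 TPM in ZT8 replicates 1 to 3. ZT20 replicates 1 and 4 were the lowest and ZT8 replicates 1 and 3 the highest, while ZT8 replicate 2 lay below ZT20 replicates 2 and 3, so the groups overlapped. The means were 440.3 ± 473.9 TPM (SD, n = 4) for ZT20 and 1717 ± 1140 TPM (SD, n = 3) for ZT8. The ZT20 mean was 395.8 TPM without ZT20 replicates 3 and 4 and 267.0 TPM without ZT20 replicate 3 alone. In a bulk sample, fewer cells of a type and less RNA per cell cannot be told apart.

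Of the 183 rows, 95 were above 0 in at least 1 sample and 88 were listed at 0 in all 7. Among functional genes 85 of 113 were above 0 somewhere and 69 reached 1 TPM. Among pseudogenes 10 of 70 were above 0 and 0 reached 1 TPM. The highest pseudogene value was 0.853 TPM, for Ighv1-73. The number of segments above 0 was 19, 42, 59 and 14 in the ZT20 replicates and 50, 29 and 43 in the ZT8 replicates. At 1 TPM or more it was 5, 29, 39 and 2 at ZT20 and 43, 24 and 32 at ZT8. The number did not follow the sum throughout: ZT8 replicate 3, with the higher sum, had fewer segments at 1 TPM than ZT20 replicate 3. No segment was above 0 in all 7 samples.

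Few segments held most of the signal in each sample. In ZT20 replicate 1 a single segment, Ighv4-1, was at 48.9 TPM and held 71.2% of the Ighv sum. In ZT20 replicate 2 the fewest segments that together held 50% were 3: Ighv1-26 (22.2%), Ighv1-53 (15.3%) and Ighv5-9 (15.2%). In ZT20 replicate 3 they were also 3: Ighv1-5 (21.8%), Ighv9-3 (19.3%) and Ighv3-6 (13.8%). ZT20 replicates 2 and 3 thus needed the same number of segments but had none of these leaders in common. In ZT20 replicate 4 Ighv1-55 (40.4%) and Ighv1-61 (19.3%) held over 50%, but at only 3.82 and 1.82 TPM, where the lowest value above 0 in that sample was 0.161 TPM.

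In ZT8 replicate 1 it took 5 segments to reach 50%, the most of any sample: Ighv1-53 (17.1%), Ighv1-82 (10.4%), Ighv1-80 (8.63%), Ighv9-2 (7.94%) and Ighv14-3 (7.45%). In ZT8 replicate 2 it took 2, with Ighv1-5 at 41.5% and Ighv1-19 at 11.9%. In ZT8 replicate 3 it took 3, with Ighv1-80 at 30.5%, Ighv9-2 at 11.9% and Ighv1-59 at 10.4%. The inverse Simpson number, the count of equally used segments that would give the same concentration, was 1.91, 8.91, 8.60 and 4.62 in the ZT20 replicates. It was 13.6, 4.87 and 7.28 in the ZT8 replicates. ZT20 replicate 1 was the most concentrated sample and ZT8 replicate 1 the least, and the groups overlapped in this measure and in the number of segments that held 50%.

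**Figure D1:**
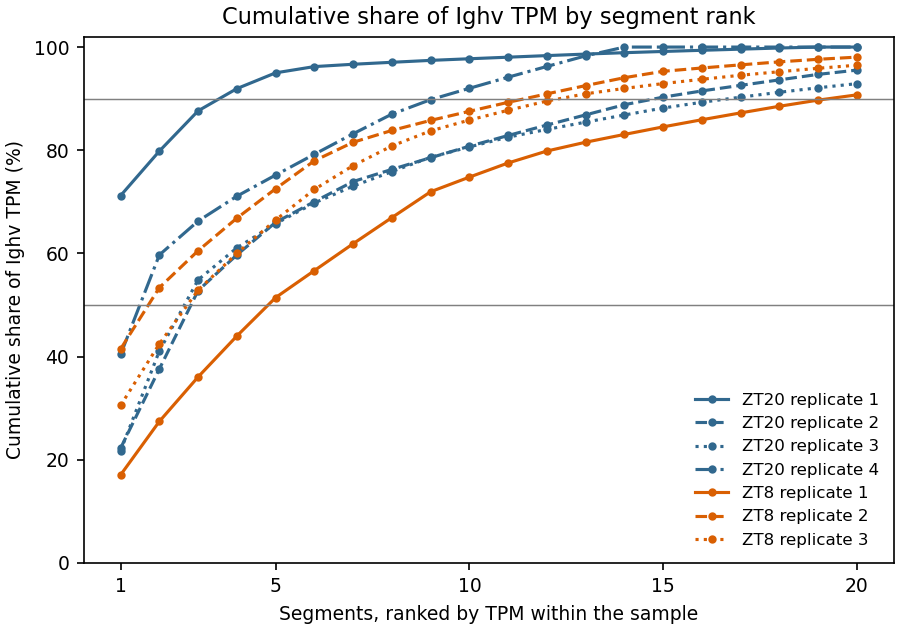
Cumulative share of the Ighv TPM of each sample (percent, vertical axis) held by its segments ranked by TPM (horizontal axis, the first 20 ranks). Lines are single samples, blue for ZT20 and orange for ZT8, and grey lines mark 50% and 90%. ZT20 replicate 1 starts at 71.2% with its first segment, and ZT8 replicate 1 rises most slowly, from 17.1%.

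The number of segments that each held at least 5% of the sum was 3, 5, 4 and 3 in the ZT20 replicates and 9, 6 and 6 in the ZT8 replicates, so the groups did not overlap. At a limit of 10% the numbers were 1, 3, 3 and 2 at ZT20 and 2, 2 and 3 at ZT8, and the groups overlapped. No test is given for these counts, since the members were chosen with results of these data known.

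Different samples were led by different segments. In all, 24 segments held at least 5% in at least 1 sample, and 17 of them did so in a single sample. Ighv1-53, Ighv1-64 and Ighv1-26 reached 5% in 2 samples each, and Ighv9-2, Ighv1-59 and Ighv1-5 in 3 each. Ighv1-80 reached it in 4 samples, ZT20 replicates 1 and 4 and ZT8 replicates 1 and 3. The 5% shares of Ighv9-2 and Ighv1-59 were all in ZT8 samples, where both segments reached 5% in each of the 3 replicates.

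**Figure D2:**
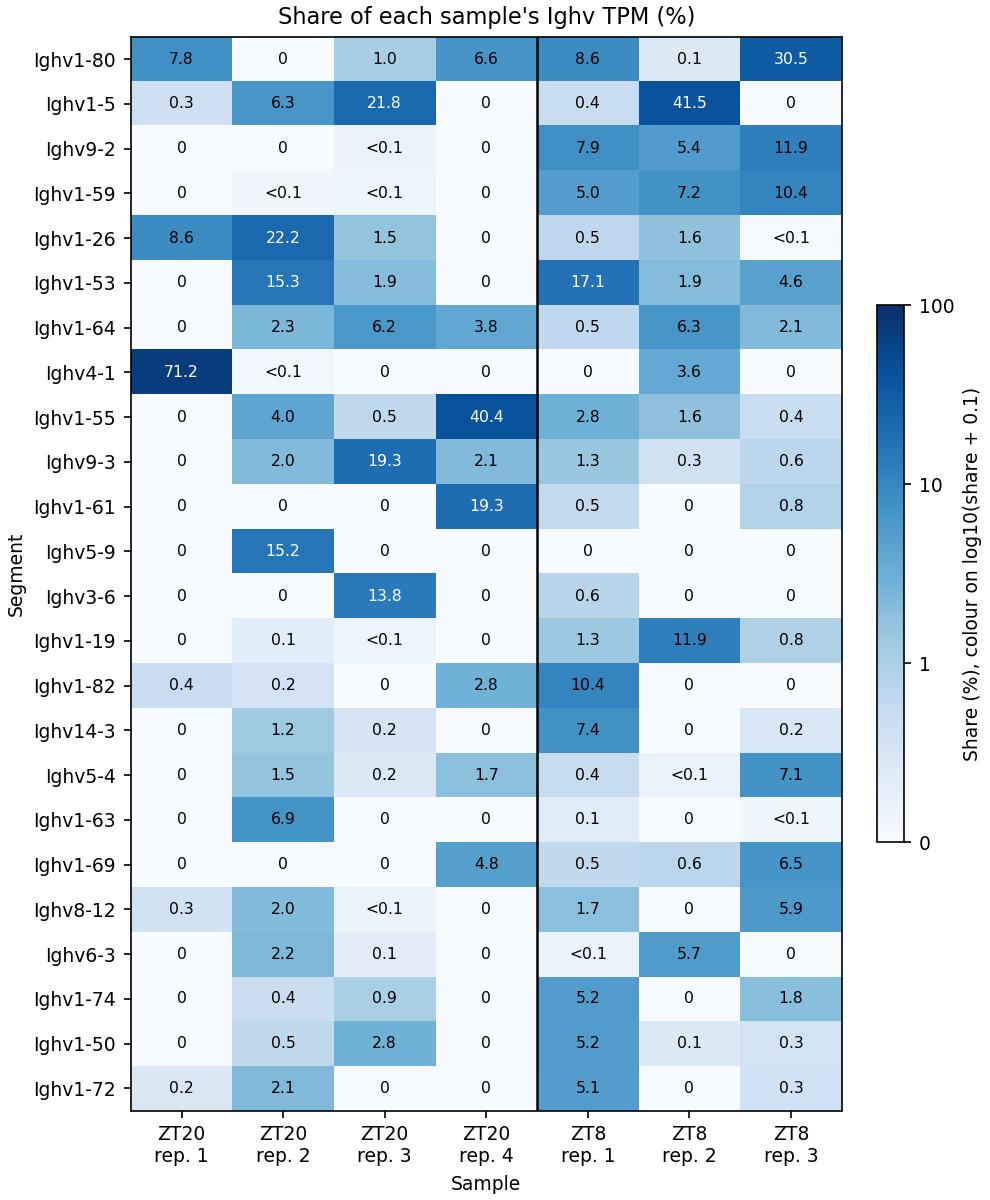
Share of each sample's Ighv TPM (percent, printed in each cell) for the 24 segments that held at least 5% in at least 1 of the 7 samples. Colour follows log10(share + 0.1), and the black line separates ZT20 from ZT8. Ighv9-2 and Ighv1-59 hold 5.01% to 11.9% in the ZT8 columns and at most 0.0566% in the ZT20 columns.

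The 10 leading segments of each sample were compared between samples. The 3 pairs of ZT8 samples had 3 to 5 of 10 in common, the 6 pairs of ZT20 samples 1 to 2, and the 12 pairs between the groups 1 to 5. ZT20 replicates 1 and 4 had only 5 and 2 segments at 1 TPM or more, so most of the pairs within ZT20 compare leaders of which many were under 1 TPM. Ighv1-53, Ighv1-59 and Ighv9-2 were among the 10 leaders in all 3 ZT8 samples. The overlap of usage, the sum over segments of the smaller of both shares, was 21.3% to 38.5% within ZT8, 4.47% to 19.7% within ZT20 and 6.13% to 35.5% between the groups. Spearman's rho across the 30 to 77 rows above 0 in either sample of a pair was between −0.549 and 0.179. These rows share reads and many are listed at 0 in 1 sample of the pair, so rho is given only as a description.

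By family, Ighv1 was the largest contributor in 6 of the 7 samples. It held 19.8%, 69.2%, 47.9% and 89.9% of the Ighv sum in the ZT20 replicates and 77.1%, 83.6% and 66.5% in the ZT8 replicates. Ighv1 makes up 53 of the 113 functional members (46.9%). ZT20 replicate 1 was the exception, with 71.2% in the Ighv4 family, whose only functional member is Ighv4-1. The small Ighv9 family of 4 functional members held 0%, 6.98%, 19.4% and 2.08% in the ZT20 replicates and 9.36%, 6.29% and 13.2% in the ZT8 replicates. All members of the families Ighv12, Ighv13, Ighv15 and Ighv16 were under 1 TPM in every sample. Along the annotated order of the 183 members, the segments that led a sample ran from position 36 (Ighv4-1) to position 177 (Ighv1-80), counted from the end with the lowest coordinates in GRCm38.

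**Figure D3:**
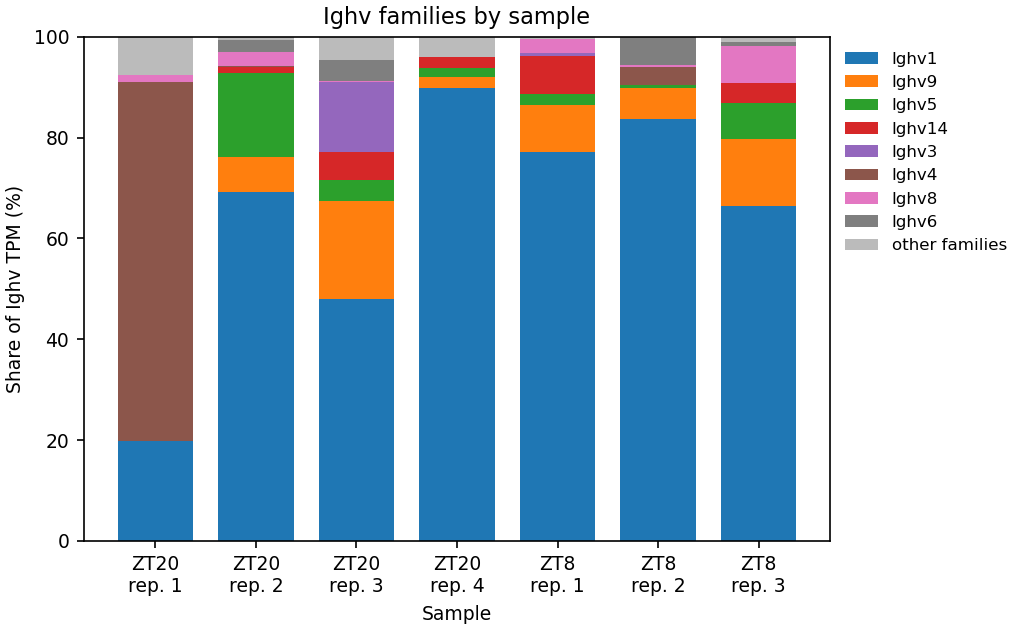
Share of the Ighv TPM (percent, vertical axis) held by each family in each of the 7 samples. Stacked colours are families named in the legend, and families not named there are pooled in light grey. Ighv1 is the largest block except in ZT20 replicate 1, where Ighv4 holds 71.2%.

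ZT20 and ZT8 were compared to ask which transcripts of the injured ganglia differ with the time of day. Since all samples were taken 72 h after injury, the hour of injury differed between the groups as well. The hours of injury and of dissection cannot be told apart here. Log2(TPM + 1) was fitted with limma over all genes whose mean over the samples reached 1 TPM, and differences are ZT20 minus ZT8 on that scale, which understates changes of low genes. Of the 183 members 58 passed this filter, all of them functional, of which 19 had a ZT20 mean under 1 TPM and so passed through their ZT8 values, and 10 had a ZT8 mean under 1 TPM and passed through their ZT20 values. At an adjusted p under 0.05, 4 of the 58 (6.90%) were lower at ZT20, where 3.61% of all 14800 genes tested were lower and 16.4% passed in either direction. All 4 were among the members that passed the filter through ZT8, with ZT20 means of 0.114 to 0.283 TPM, so that they had to differ in this direction. By the same test 0 of the 58 were higher, where 12.8% of all genes were higher. At an unadjusted p under 0.05, 11 were lower and 0 higher (19.0% of the 58), where 34.6% of all genes passed in either direction. The difference was negative for 44 of the 58 (75.9%), against 33.6% of all genes, and its median was −1.41, against 0.23 over all genes. Without the filter it was negative for 56 of 95 members (58.9%) with a median of −0.24, against 0.063 over all genes. With median-ratio scaling the medians were −1.50 and 0.033, the same 4 members were lower, and all genes split into 1160 lower and 1128 higher, against 534 and 1899 for TPM as deposited. The members' 6.90% then stood beside 7.84% of all genes lower. All ZT20 values lay below all ZT8 values for 5 of the 58 (8.62%), near the 8.72% of all genes, and higher for 0, where 24.5% of all genes were higher without overlap. Without ZT8 replicate 2, 13 members were lower at an adjusted p under 0.05 (22.8% of 57), the 4 among them, beside 4.53% of all genes lower. Without ZT20 replicates 3 and 4 the limma fit called 0 of 14687 genes at that threshold, members included, and 5 of 52 members (9.62%) were lower at an unadjusted p under 0.05, where 16.2% of all genes passed in either direction.

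Ighv9-2 (ENSMUSG00000094102) was lower at ZT20. ZT8 replicates 1 to 3 had 226.9, 31.4 and 204.4 TPM of it, whereas the ZT20 replicates had 0, 0, 0.544 and 0 TPM. All 3 ZT8 samples thus lay far above all 4 ZT20 samples. The log2 difference was −6.69 (standard error 0.62, limma adjusted p = 0.00193). Its nearest relative, Ighv9-1 (14 of 305 bases different), had 2.68, 3.37 and 11.4 TPM in the ZT8 replicates and 0, 7.70, 0 and 0 TPM in the ZT20 replicates. Ighv9-3, 94.4% identical to Ighv9-2, was highest in ZT20 replicate 3, at 185.5 TPM, and did not pass (limma adjusted p = 0.877).

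Ighv1-59 (ENSMUSG00000095197) was also lower at ZT20. Its level was 143.2, 41.5 and 178.7 TPM in the ZT8 replicates and 0, 0.186, 0.393 and 0 TPM in the ZT20 replicates, again without overlap. The log2 difference was −6.51 (standard error 0.46, limma adjusted p = 0.00133). Ighv1-69 (ENSMUSG00000094502), from which it differs at 8 of 305 bases, had 15.0, 3.53 and 110.8 TPM in the ZT8 replicates and 0, 0, 0 and 0.456 TPM in the ZT20 replicates. The log2 difference of Ighv1-69 was −4.19 (standard error 0.89, limma adjusted p = 0.0183). Both segments were highest in ZT8 replicate 3 and, within ZT8, lowest in replicate 2, and 64.3% of the 31-base words of Ighv1-59 and 66.9% of those of Ighv1-69 occur in another Ighv transcript. How their shared reads were divided could not be followed from TPM. The adjusted p of Ighv1-69 was 0.0544 without ZT20 replicate 3, 0.0502 without ZT20 replicate 4 and 0.0628 without the filter.

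Ighv1-19 (ENSMUSG00000096410) was the remaining segment lower at ZT20. The ZT8 replicates had 36.7, 68.9 and 14.2 TPM and the ZT20 replicates 0, 0.792, 0.340 and 0 TPM, with no overlap. The log2 difference was −4.78 (standard error 0.48, limma adjusted p = 0.00205). Its nearest relative Ighv1-26 (12 of 305 bases different) was highest in ZT20 replicate 2, at 160.8 TPM, and at 0.163 TPM in ZT8 replicate 3. Without ZT20 replicates 3 and 4 the differences of Ighv9-2, Ighv1-59, Ighv1-19 and Ighv1-69 were −6.84, −6.57, −4.68 and −4.33. Their limma adjusted p-values there were 0.0617, 0.0609, 0.0868 and 0.178. Ighv1-66, named because its groups did not overlap either, had 22.2, 0.944 and 1.19 TPM in the ZT8 replicates and 0 to 0.801 TPM at ZT20, and did not pass (limma adjusted p = 0.135).

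**Figure D4:**
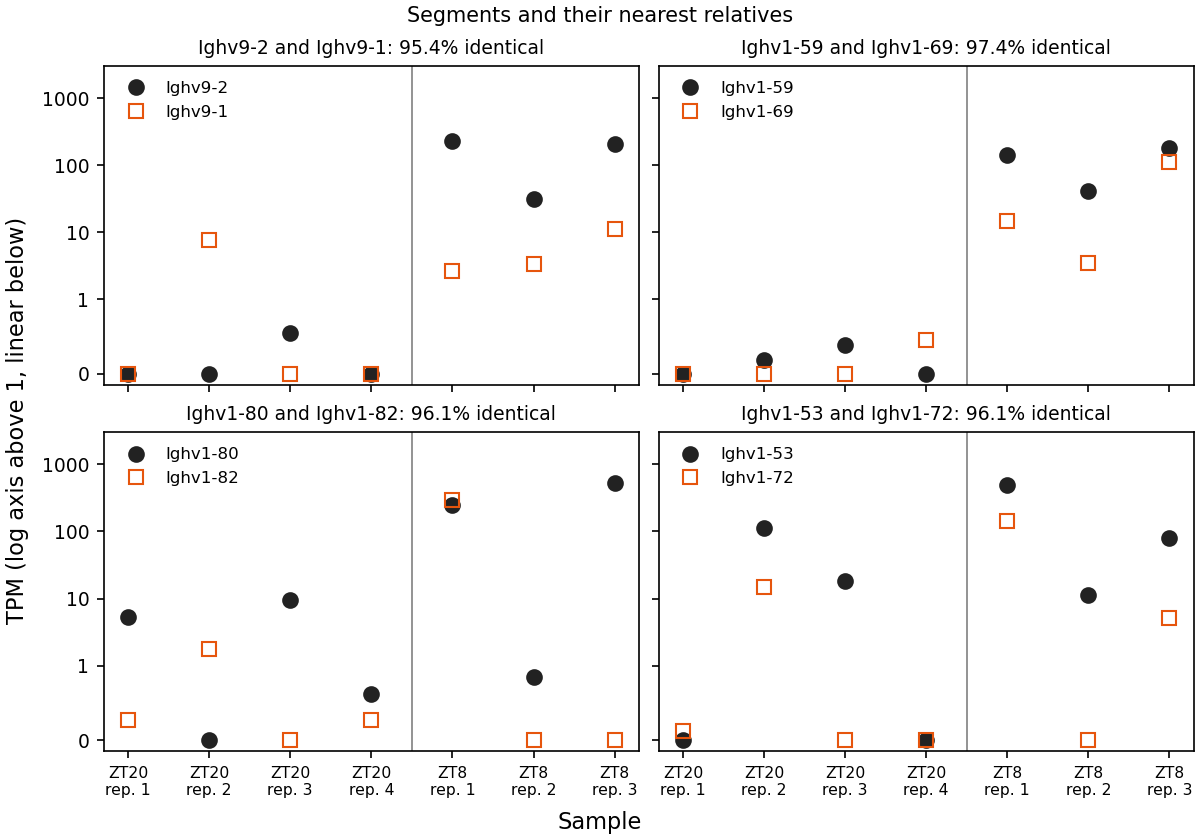
TPM of 4 segments (filled circles) and the nearest relative of each (open squares) in the 7 samples, on an axis that is logarithmic above 1 TPM and linear below. Panel titles give the identity of the aligned V exons, and the grey line separates ZT20 from ZT8. Ighv9-2 and Ighv1-59 lie at 31.4 TPM or higher in every ZT8 sample and under 1 TPM in every ZT20 sample.

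Segments that led a sample differed mostly from sample to sample within a group. Ighv1-80 (ENSMUSG00000094075) had 246.7, 0.850 and 523.0 TPM in the ZT8 replicates and 5.37, 0, 9.53 and 0.620 TPM in the ZT20 replicates. ZT8 replicate 2 lay within the ZT20 range, and the difference did not pass (−4.27, standard error 1.79, limma adjusted p = 0.130). Without ZT8 replicate 2 it was −6.80 (limma adjusted p = 0.00514). Its nearest relative Ighv1-82 (12 of 305 bases different) was at 296.3 TPM in ZT8 replicate 1, where both were high, but listed at 0 in ZT8 replicate 3, where Ighv1-80 was highest.

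Ighv1-53 (ENSMUSG00000093894) had 487.5, 11.3 and 79.2 TPM in the ZT8 replicates and 0, 111.0, 18.1 and 0 TPM in the ZT20 replicates, with overlap and a limma adjusted p of 0.201. Its relative Ighv1-72 had 144.9, 0 and 5.15 TPM in the ZT8 replicates and reached 15.0 TPM in ZT20 replicate 2. In the samples where Ighv1-53 was highest in its group, Ighv1-72 was highest as well. Ighv1-5 (ENSMUSG00000096499), whose nearest relative differs at 42 of 305 bases, had 11.5, 240.3 and 0 TPM in the ZT8 replicates and 0.215, 45.6, 208.8 and 0 TPM in the ZT20 replicates. Only 8.77% of its 31-base words occur in another Ighv transcript, and it was high in samples of both groups (limma adjusted p = 0.899).

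Ighv4-1 (ENSMUSG00000076655) was at 48.9 TPM in ZT20 replicate 1 and 20.8 TPM in ZT8 replicate 2. Its remaining 5 values were 0 to 0.158 TPM. Ighv5-9 reached 109.9 TPM in ZT20 replicate 2, and its other 6 values were 0. For Ighv3-6 the value was 132.5 TPM in ZT20 replicate 3, 18.3 TPM in ZT8 replicate 1 and 0 elsewhere. Each of these was thus a segment of 1 or 2 samples. Ighv1-55, at 1 TPM or more in 6 samples, was the most widely present member, at 0, 29.0, 5.22 and 3.82 TPM in the ZT20 replicates and 81.1, 9.28 and 6.71 TPM in the ZT8 replicates (limma adjusted p = 0.301). Ighv1-26, Ighv1-61, Ighv1-82, Ighv9-3, Ighv4-1, Ighv5-9 and Ighv3-6 did not pass either, with limma adjusted p-values of 0.127 to 0.995. Of these, Ighv1-61 passed in 2 of 16 alternatives. Its difference was −3.53 without ZT8 replicate 2 (limma adjusted p = 0.00433) and −3.26 with array weights (limma adjusted p = 0.00667).

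Among functional members there were 59 pairs of segments with at least 95% identity. In 51 of them at least 1 segment reached 1 TPM in some sample, and in 32 both did so in the same sample. How often other pairs reach 1 TPM together was not counted. The 15 pairs among the 6 segments that led a sample were 57.7% to 95.1% identical. Among the segments that together held 50% of a sample, identity ran from 53.2% to 62.6% in ZT20 replicate 3 and from 62.0% to 96.1% in ZT8 replicate 1. Of the 15 segments named by rule, 11 had a relative with at least 95% identity.

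Heavy-chain constant genes are joined to the V segment in the same transcript. The sum of the switched isotypes, a grouping made after their values were seen, lay near the Ighv sum in most samples. Ighg1, Ighg2b, Ighg2c, Ighg3, Igha and Ighe summed to 30.0, 675.0, 816.1 and 11.1 TPM in the ZT20 replicates and 2787, 589.7 and 1670 TPM in the ZT8 replicates. The Ighv sum was 0.852 to 1.18 times that sum in 6 samples and 2.29 times in ZT20 replicate 1. Ighm, the constant gene of IgM, was at 130.4 to 330.1 TPM at ZT20 and 133.7 to 251.7 TPM at ZT8. Its order was that of the Ighv sum over the ZT20 samples but not over the ZT8 samples, where replicate 3 was lowest in Ighm and replicate 2 in the Ighv sum. In ZT20 replicate 4 it was at 130.4 TPM beside 9.45 TPM of all Ighv rows. Ighd, the constant gene of IgD, was at 0 to 1.73 TPM in all samples. Of the 8 constant genes listed 6 were tested and 1, Ighg1, was lower at ZT20 (limma adjusted p = 0.0305). Since limma called 0 of 14687 genes without ZT20 replicates 3 and 4 (2378 at an unadjusted p under 0.05), this call and those of the listed genes in the next paragraphs were lost there.

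**Figure D5:**
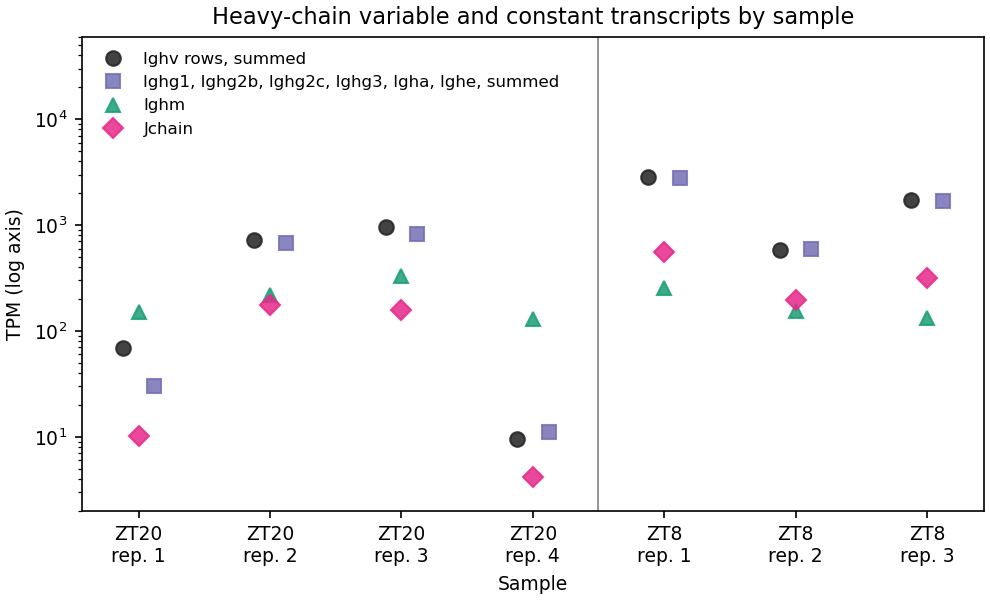
Level in TPM (log axis) of all Ighv rows summed, of the 6 switched constant genes summed, of Ighm and of Jchain in each of the 7 samples, with the grey line between ZT20 and ZT8. The Ighv and switched constant sums lie close together in every sample but ZT20 replicate 1, where the Ighv sum is 2.29 times the other.

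Other genes of antibody production were examined from a fixed list. Of 7 genes of assembly and secretion 6 were tested and 1 was lower at ZT20: Mzb1, a chaperone of the endoplasmic reticulum in plasma cells, at 1.03, 9.28, 8.51 and 0 TPM at ZT20 and 44.2, 17.9 and 23.9 TPM at ZT8 (limma adjusted p = 0.0432). Jchain, which links IgM and IgA into polymers, was at 10.2, 176.3, 157.3 and 4.18 TPM at ZT20 and 560.4, 195.2 and 316.6 TPM at ZT8, without overlap, and did not pass (limma adjusted p = 0.102). In both genes ZT20 replicates 1 and 4 were the lowest samples, as in the Ighv sum. Rag1, Rag2 and Dntt, which act in the joining of V, D and J segments in developing lymphocytes, were at most at 0.122 TPM and were not tested. Both genes of the surrogate light chain, Vpreb1 and Igll1, were at most at 1.03 TPM and were not tested.

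Markers of the cells that could hold these transcripts were read in the same samples. The 8 plasma cell markers summed to 108.4 to 297.7 TPM at ZT20 and 366.0 to 710.4 TPM at ZT8, without overlap. Without Jchain the other 7 summed to 98.1 to 122.6 TPM and 103.3 to 170.8 TPM, and the groups overlapped. Sdc1 made up most of that sum in every sample, at 94.5 to 121.9 TPM at ZT20 and 75.7 to 151.0 TPM at ZT8. Of 4 plasma cell markers tested, 1 (Mzb1) was lower at ZT20. Among the 8 markers, Jchain, Mzb1 and Pou2af1 were lower in every ZT20 sample than in any ZT8 sample. Pou2af1, not tested, was at 0.0329 to 1.13 TPM at ZT20 and 1.24 to 1.97 TPM at ZT8. The groups overlapped in Sdc1, Irf4, Derl3, Prdm1 and Tnfrsf17. Tnfrsf17 was listed at 0 in all ZT8 samples, and Prdm1 was at most at 0.324 TPM in any sample. The 8 B cell markers summed to 3.76 to 10.8 TPM at ZT20 and 6.42 to 12.3 TPM at ZT8, with overlap, and 0 of 3 tested passed. Pax5 was listed at 0 in all ZT8 samples and was at most at 0.368 TPM at ZT20. T cell markers summed to 4.36 to 25.9 TPM and 13.6 to 41.9 TPM, and 0 of 5 tested passed. Macrophage markers summed to 54.8 to 86.3 TPM and 80.6 to 188.04 TPM, and 1 of 5 tested (C1qa) was lower at ZT20. Satellite glia markers summed to 1198 to 1534 TPM at ZT20 and 1909 to 2137 TPM at ZT8, with 2 of 5 tested lower. Sensory neuron markers, the labelled target of the enrichment, were abundant in all samples, at 11289.9 to 12848 TPM and 9429 to 12657 TPM, with 1 of 6 tested (Nefh) higher at ZT20. Red cell markers were at 1209.5 to 3006 TPM and 493.9 to 6448 TPM, with 0 of 3 tested past the threshold, and endothelial markers were at most at 2.46 TPM in sum and not tested. The part of these cells in the differences of the Ighv rows was not tested.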

How the data were processed

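Per the submitters' processing notes, Trim Galore 0.6.6, FastQC 0.11.9, Salmon 1.6.0, DESeq2 1.34.0 and the GRCm39 genome were used. The annotation release and the way transcripts were summed to genes are not given in the sources used here. The authors deposited 1 table of TPM values for 54309 genes in 7 samples, each column matching 1 sample by its name and 0 sample columns unused. TPM keeps no counts, so no interval for counting error could be given. Groups were taken from the titles.

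Members and gene lists were chosen with earlier results of these data known. Some listed genes are not reported here. Segments named individually were those among the 3 highest in TPM in any sample or with an adjusted p under 0.05, 15 in all. Shares are percentages of the summed Ighv TPM of a sample. Log2(TPM + 1) was fitted with limma 3.58.1 in R 4.3.3 (intensity trend, no covariates, two-sided, Benjamini-Hochberg adjustment over all 14800 genes averaging 1 TPM or more). The fit was tested on simulated data. V exons were aligned with Biopython 1.88 (free end gaps, gap opening penalty 5). Coordinates are not given, because the annotation at hand is GRCm38. Alternatives were a pseudocount of 0.1, no filter or a minimum mean of 5 TPM, median-ratio and quantile scaling, no trend, array weights, a replicate block, an adjusted p under 0.1, other limits for shares, pooling by family, leaving out each replicate, and leaving out ZT20 replicates 3 and 4.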

Additional observations from a re-analysis of the deposited data

Results flagged for a closer look

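For 10 of the 21 results examined at ZT20, 1 of the 4 samples stood apart from the others by more of the group's range than Dixon's 95% limit allows. Most of these segments were named because they were among the highest of some sample, so a single high sample is built into the choice and the count cannot be read against the roughly 1 in 20 groups that chance flags. The gap as a share of the range was 0.910 for Ighv1-26 (160.8 TPM in replicate 2), 0.836 for Ighv1-53 (111.0 TPM in replicate 2), 0.852 for Ighv1-82 (1.79 TPM in replicate 2), 0.997 for Ighv4-1 (48.9 TPM in replicate 1) and 0.921 for Ighv9-3 (185.5 TPM in replicate 3). It was 1.0 for Ighv1-61 and Ighv1-69 (replicate 4), Ighv3-6 and Ighv9-2 (replicate 3) and Ighv5-9 (replicate 2), which is what any value beside 3 values of 0 gives. The high sample was replicate 2 in 4 of the 10, replicate 3 in 3, replicate 4 in 2 and replicate 1 in 1.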

How the results depend on the processing

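Members lower at ZT20 by limma at an adjusted p under 0.05 numbered 4 (6.90% of those tested, beside 3.61% of all genes), 16 with array weights (27.6% beside 6.20%), 13 without ZT8 replicate 2 (22.8% beside 4.53%) and 0 without ZT20 replicates 3 and 4 (5 at an unadjusted p under 0.05, 9.62% beside 16.2% in either direction); leaving out single replicates gave 3 to 13, where 0.698% to 4.53% of all genes were lower. None was higher in any setting run. Ighv9-2, Ighv1-59 and Ighv1-19 passed in 16 of 17 alternatives and Ighv1-69 in 13 of 17. The causes were not tested. With rows pooled by family, the means at ZT20 and ZT8 were 7.25 and 7.67 families above 0, 2.75 and 3.33 at or above 5%, 1.25 and 1.0 holding 50%, inverse Simpson numbers of 2.10 and 1.72 and leading shares of 69.6% and 75.7%. Segments at or above 10% averaged 2.25 and 2.33, and segments holding 90% averaged 11.5 and 15.0.

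Signs turned only for members that did not pass. With array weights the log2 difference was 1.78 for Ighv1-5 and 0.65 for Ighv4-1, with a pseudocount of 0.1 it was 0.01 for Ighv4-1, and without ZT20 replicates 3 and 4 it was −1.42 for Ighv3-6 and 1.45 for Ighv4-1. Leaving out single replicates gave −0.30 to 2.14 for Ighv1-26, −2.40 to 1.56 for Ighv1-5, −1.42 to 1.77 for Ighv3-6, −1.41 to 1.46 for Ighv4-1 and −1.98 to 0.54 for Ighv9-3.

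With the replicate number as a block 4 members were lower, the same 4 (6.90% beside 1.91% of all genes), and the differences of Ighv1-5, Ighv4-1 and Ighv9-3 turned to 0.66, 0.47 and 0.45. Nothing in the labels but that number links samples across the groups. The deviations of samples with the same number correlated at −0.0141, 0.153 and 0.083 for replicates 1 to 3. With so few samples these values do not show a pairing and cannot exclude one. ZT8 replicates 1 to 3 correlated best with ZT20 replicates 3, 2 and 4.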
